A study of Homo sapiens with 12 samples.

Results

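The D-type cyclins and the CDK inhibitors are 10 genes, taken here by name: the cyclins CCND1, CCND2 and CCND3, the CIP/KIP inhibitors CDKN1A, CDKN1B and CDKN1C, and the INK4 inhibitors CDKN2A, CDKN2B, CDKN2C and CDKN2D. All 10 were among the 45478 genes of the count table, and 7 of them passed a filter on low counts that left 19929 genes to test. CCND2, CDKN2A and CDKN2B did not pass. Cyclin D binds CDK4 or CDK6 in G1 and the complex phosphorylates the retinoblastoma protein RB1, which frees the E2F factors to switch on genes for DNA replication. INK4 proteins bind CDK4 and CDK6 and keep cyclin D off, whereas CIP/KIP proteins bind cyclin-CDK complexes and act chiefly on CDK2. In clear cell renal cell carcinoma (ccRCC) cells without VHL, CCND1 is known as a gene driven by the hypoxia-inducible factor HIF-2α.

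RNA-seq had been done on 12 libraries from 2 established human ccRCC lines, 786-O and A498, which both lack functional VHL, and from a sunitinib-resistant derivative of each. Sunitinib is an oral inhibitor of VEGF and PDGF receptor kinases used against this tumour. The groups were the parental lines, called 786-O and A498 below and never selected, resistant 786-O (cells of that line grown out in 4 µM sunitinib) and resistant A498 (grown out in 2 µM sunitinib), with 3 libraries each. Selection was by rising drug concentration over 4 months or more than 20 passages with sunitinib always in the medium, and 1 resistant line per parental line was described. Every library carried the label of no further treatment, and its title also held the tag veh. Nothing in the sources used here says whether the 3 libraries of a group came from separate cultures, so the p-values measure only the spread between these libraries.

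Total counts were 40845091 to 47972092 per library in 786-O, 42643735 to 46888482 in resistant 786-O, 21686648 to 34951585 in A498 and 20042519 to 25831163 in resistant A498. Levels are given as CPM, the count at a library size of 1000000 after scaling by the trimmed mean of M-values (TMM), and each mean stands with its SD over n = 3 libraries. A gene is said to have passed, risen or fallen where its Benjamini-Hochberg adjusted p was under 0.05 in edgeR's quasi-likelihood test over all 19929 genes. Each group carried its own batch label, so group and batch cannot be told apart in any comparison. The renal lineage factor PAX8 was read in all 4 groups (199.7 to 311.8 CPM on average), while the ccRCC markers CA9 (0 to 54 counts per library) and NDUFA4L2 (9 to 33 counts) and the tubule marker LRP2 (0 to 15 counts) were at or near 0. Of the renal and ccRCC markers, 9 of 10 were tested. In resistant 786-O 1 rose and 5 fell against 786-O, where 35% of all genes were higher and 33.5% lower (68.5% passed). Against 786-O, resistant A498 had 2 of them higher and 4 lower (63.6% of all genes passed), and against A498 it had 2 higher and 5 lower (72.7%). The T cell genes PTPRC, CD3D, CD3E and CD2 had 0 to 3 counts in every library. CD8A was the one T cell marker tested of 6, with 20 to 26 counts in resistant 786-O and 4 to 6 in 786-O. Among 6 fibroblast and endothelial markers 3 were tested. Of these, COL1A1 and VWF were higher in resistant 786-O than in 786-O, where 35% of all genes were higher. VWF went from 0 counts in 786-O to 14 to 28 counts. CD8A and VWF passed the filter on low counts through the resistant groups, in which they are read at a higher level. PDGFRB stood at 5.49 ± 0.420 CPM in resistant A498 and 0.241 to 0.397 CPM in the other groups. COL1A1 had 55.4 ± 5.89 CPM in A498, 3.70 ± 0.128 in resistant A498, 2.25 ± 0.226 in 786-O and 3.17 ± 0.252 in resistant 786-O.

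The libraries labelled resistant A498 did not stand nearest to A498. Across 19929 genes, their median correlation of log2 CPM reached 0.982 with resistant 786-O and 0.951 with 786-O but 0.87 with A498, against 0.868 between 786-O and A498. Genes read in A498 and nearly absent from 786-O (62 genes) had a median level in resistant A498 of 0.362% of that in A498, and genes read in 786-O and nearly absent from A498 (33 genes) had a median of 94.6% of the 786-O level. Every comparison of the libraries labelled resistant A498 with A498 is therefore given beside the comparison with 786-O, and in the former the effect of selection and the difference between the parental lines cannot be told apart. One library, resistant 786-O replicate 2, also stood apart from its group: the SD of its log2 deviation from the other 2 libraries was 0.295, against 0.0748 to 0.176 for the remaining 11 libraries. For the members, results that turn on it are given with and without it, and for other genes this is done only in part.

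Of the INK4 genes, CDKN2A and CDKN2B were not read at all. Their promoters, 250 bases upstream of a RefSeq transcript start on GRCh38.p14, are shown because the 2 genes are the INK4 members without a count. That of CDKN2D is set beside them as the window of an INK4 gene that was read in every library. RNA counts cannot tell absent DNA from DNA that is not transcribed, and which of them holds here was not tested. The sequences are those of the reference genome, not of these lines. CDKN2A has 2 starts: the inner one, at chr9:21974858-21975107, belongs to the transcript of the p16 protein and lies within the gene, and the outer one, at chr9:21995325-21995574, belongs to that of the ARF protein. CDKN2B's window is chr9:22009306-22009555 and CDKN2D's is chr19:10568980-10569229, all 4 on the minus strand. Capitals mark the GC box GGGCGG on either strand, the core of the site bound by SP1.
CDKN2A, p16 start: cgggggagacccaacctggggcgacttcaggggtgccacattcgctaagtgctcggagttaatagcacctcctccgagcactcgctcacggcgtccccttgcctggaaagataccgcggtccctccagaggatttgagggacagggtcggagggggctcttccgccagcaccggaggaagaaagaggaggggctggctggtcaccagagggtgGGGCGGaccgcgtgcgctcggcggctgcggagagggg
CDKN2A, ARF start: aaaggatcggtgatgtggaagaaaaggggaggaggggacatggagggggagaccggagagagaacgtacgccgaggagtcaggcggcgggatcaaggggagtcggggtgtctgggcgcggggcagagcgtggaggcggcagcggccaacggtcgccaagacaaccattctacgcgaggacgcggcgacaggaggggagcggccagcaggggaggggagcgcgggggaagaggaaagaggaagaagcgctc
CDKN2B: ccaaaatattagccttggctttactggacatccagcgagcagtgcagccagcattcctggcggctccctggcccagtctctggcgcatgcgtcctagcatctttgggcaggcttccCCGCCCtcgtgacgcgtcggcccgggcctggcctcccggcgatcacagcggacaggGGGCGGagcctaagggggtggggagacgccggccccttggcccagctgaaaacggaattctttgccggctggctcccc
CDKN2D: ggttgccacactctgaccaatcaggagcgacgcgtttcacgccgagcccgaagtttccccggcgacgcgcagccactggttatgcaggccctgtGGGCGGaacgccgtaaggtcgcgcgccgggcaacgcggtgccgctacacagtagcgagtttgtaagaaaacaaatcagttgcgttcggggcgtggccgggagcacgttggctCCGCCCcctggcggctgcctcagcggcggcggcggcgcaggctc
In the reference genome, the windows of the 2 genes without a count were not poorer in CpG than windows in general. They held 20, 24 and 18 CpG and were 66.4% to 66.8% G or C, that of CDKN2D held 33 CpG and was 67.6% G or C, and the median over 35116 RefSeq windows was 11 CpG and 58% G or C, with 32.4% of windows at 20 CpG or more. GC boxes were found once upstream of p16, not upstream of ARF, and 2 times each in the windows of CDKN2B and CDKN2D, and 42.6% of all windows held at least 1. RefSeq windows were at hand for 7 of the 10 members (12 windows), and for CCND1, CCND2 and CDKN1C they were not. None of the 12 held TATAAA (10.7% of all windows did) or one of the E2F sequences TTTCGCGC, TTTGGCGC, TTTCCCGC and TTTGCCGC on either strand (2.79% did), which says only that these letters are not in these windows.

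CDKN2A (chr9:21967752-21995301, minus strand), which encodes the CDK4 and CDK6 inhibitor p16 and, from another reading frame, the MDM2 inhibitor ARF, had 0 counts in all 12 libraries. CDKN2B (chr9:22002903-22009305, minus strand), which encodes p15, an INK4 inhibitor induced by TGF-β, also had 0 counts in all 12. A count of 0 over all libraries allows up to 3 counts, or 0.0072 CPM, with only counting error covered. No fold can be given for either gene.

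The genes on either side of CDKN2A and CDKN2B were read. MTAP, which salvages methionine from methylthioadenosine and ends 30.1 kb from CDKN2A, had 48.1 ± 0.514 CPM in 786-O, 34.3 ± 5.46 in resistant 786-O, 101 ± 2.33 in A498 and 43.2 ± 0.952 in resistant A498. On the other side, DMRTA1, 451.5 kb away, had 12.8 ± 0.335, 16.5 ± 2.41, 21.8 ± 1.09 and 15.2 ± 0.838 CPM in the same order. Between these flanking genes, CDKN2B-AS1, the antisense transcript known as ANRIL, which overlaps CDKN2A, had 0 or 1 count in every library. These 3 listed genes thus stood at 0 or 1 count in all 4 groups, both parental lines included.

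**Figure D1:**
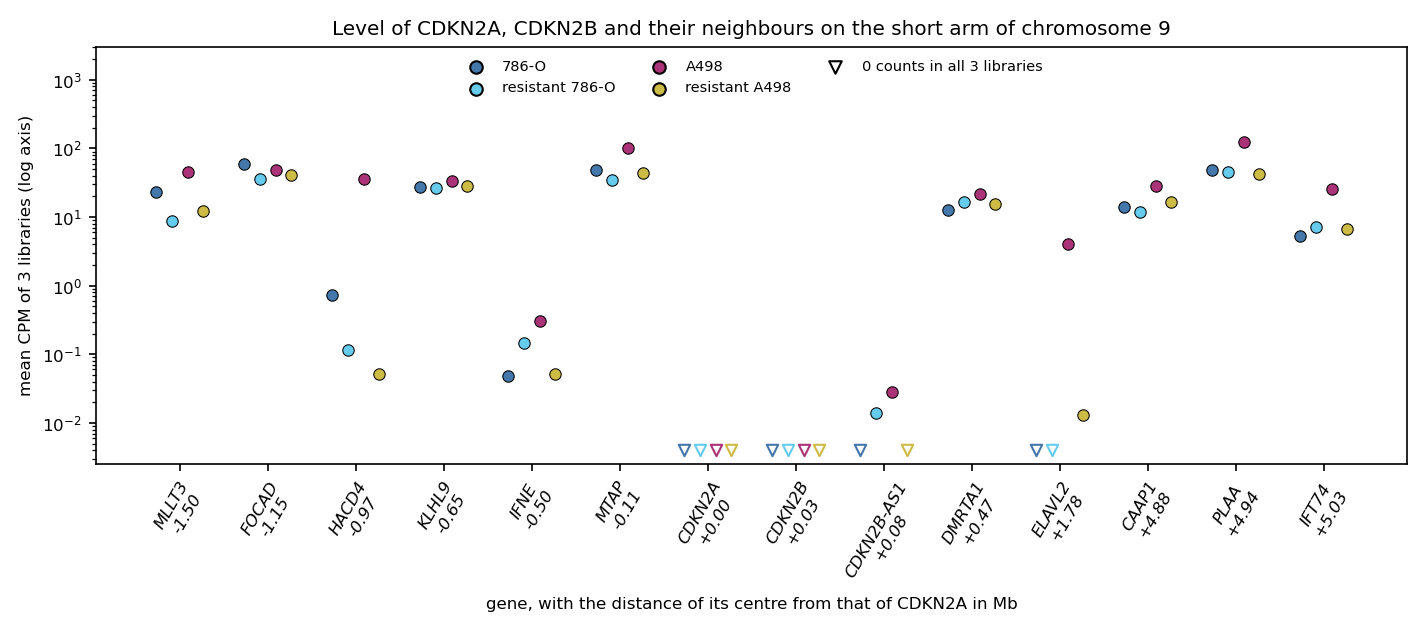
Mean CPM of 3 libraries (log axis) for CDKN2A, CDKN2B and 12 neighbouring genes on the short arm of chromosome 9, in order of the distance of each gene's centre from that of CDKN2A in Mb, coloured by group; open triangles mark 0 counts in all 3 libraries. CDKN2A and CDKN2B are at 0 in all 4 groups between MTAP and DMRTA1, and HACD4 and ELAVL2 are read above 1 CPM in A498 only.

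Farther out the A498 libraries differed from the other 9. HACD4, an enzyme of very long fatty acid synthesis, had 36.3 ± 1.01 CPM in A498, 0.733 ± 0.138 in 786-O, 0.117 ± 0.0699 in resistant 786-O and 0.0509 ± 0.0442 in resistant A498. ELAVL2, a neuronal RNA-binding protein, had 88 to 149 counts in A498, 0 in 786-O and resistant 786-O and 0 or 1 in resistant A498. Of the 12 neighbours, 10 were tested: 2 rose and 5 fell in resistant 786-O against 786-O, where 68.5% of all genes tested passed in either direction, 3 rose and 3 fell in resistant A498 against 786-O (63.6% of all genes). ELAVL2 was tested through its counts in A498. MLLT3, part of a transcription elongation complex, fell in resistant 786-O by 1.41 on the log2 scale and in resistant A498 against 786-O by 0.92, and FOCAD, a focal adhesion protein, fell by 0.71 and 0.52. KLHL9, a cullin adaptor, had 27.8 ± 0.0632 CPM in 786-O, 26.9 ± 3.70 in resistant 786-O, 33.6 ± 1.5 in A498 and 28.3 ± 0.333 in resistant A498. IFNE, an epithelial interferon, had 0 to 18 counts per library. Those beyond 4 Mb were read in every group: IFT74 was higher in resistant 786-O (log2 fold change 0.45) and in resistant A498 against 786-O (0.35), CAAP1 was lower by -0.23 and higher by 0.28, and PLAA, at -0.11 and -0.17, did not pass.

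Among the 7 members tested, 5 changed in resistant 786-O against 786-O: CCND1, CDKN1C and CDKN2D were higher (3 of 7, where 35% of all genes tested were higher) and CDKN1B and CDKN2C lower (2 of 7, 33.5% of all genes), while CCND3 and CDKN1A did not pass. Since 68.5% of all genes tested passed in either direction, 5 of 7 is near the background. The 2 groups did not overlap for 5 of the 7, as for 68.9% of all genes. In the libraries labelled resistant A498 against 786-O, again 5 of 7 passed (63.6% of all genes), with CDKN1B, CDKN1C, CDKN2C and CDKN2D higher (31.6% of all genes) and CCND3 lower (32.1%), and 6 of 7 did not overlap (73.4%). Those 2 comparisons share the 786-O libraries. Against A498, 6 of 7 passed in resistant A498 (72.7% of all genes), with CCND1, CDKN1B, CDKN2C and CDKN2D higher (36.3%) and CCND3 and CDKN1A lower (36.4%), and all 7 did not overlap (78.5%). Between the parental lines, 5 of 7 passed (74.2% of all genes), with CCND1 and CDKN2D higher in 786-O (38.2%) and CCND3, CDKN1A and CDKN1C lower (36.1%), and 5 did not overlap (80.2%). Between the resistant groups 4 of 7 passed (46.1%), 3 higher (23%) and 1 lower (23%) in resistant A498, and 4 did not overlap (51.7%). A change of over 2-fold was found for 1 member, CDKN1C, in resistant 786-O (22% of all genes) and in resistant A498 against 786-O (20%), and for 3 members, CCND1, CCND3 and CDKN2D, in resistant A498 against A498 (30.8%). Between the parental lines it was found for 3 members, CCND1, CDKN1C and CDKN2D (31.9%), and between the resistant groups for 0 (7.3%).

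**Figure D2:**
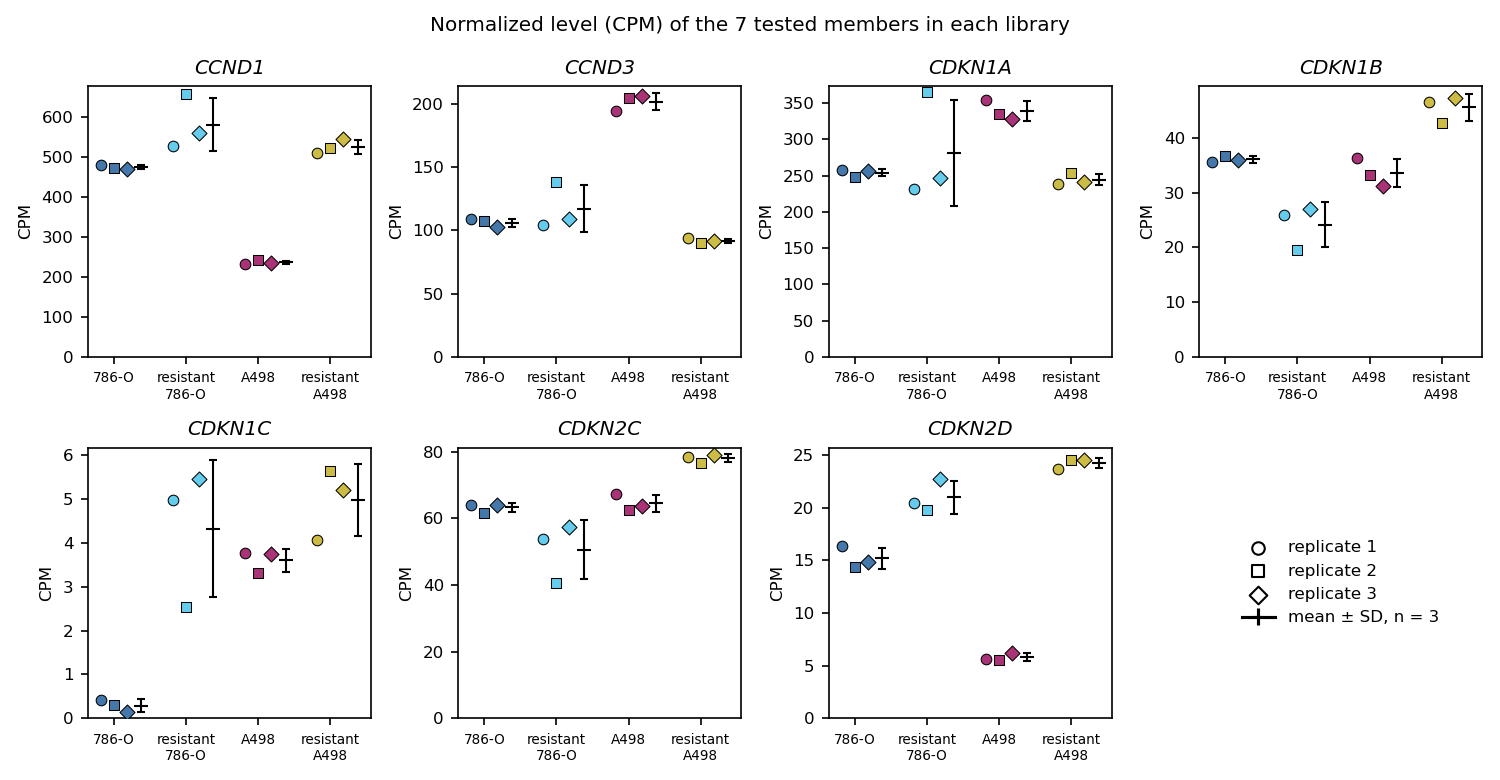
CPM of the 7 tested members in each of the 12 libraries, one panel per gene with a linear axis from 0; symbols mark the replicate number, and bars show the mean ± SD of 3 libraries. CCND1 is lowest and CCND3 highest in A498, CDKN1C is below 0.5 CPM in the 786-O libraries, and resistant 786-O replicate 2 (square) stands off its group in CCND1, CCND3, CDKN1A, CDKN1B, CDKN1C and CDKN2C.

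CCND1 (chr11:69641156-69654474, plus strand), the cyclin D through which growth factor signals most often reach CDK4, had 480, 471 and 470 CPM in the 786-O libraries and 527, 656 and 559 CPM in resistant 786-O. In A498 it had 233, 241 and 235 CPM, and in resistant A498 510, 521 and 545 CPM. The resistant 786-O libraries all lay above those of 786-O, and the resistant A498 libraries lay above both parental groups and overlapped with resistant 786-O. The log2 fold change in resistant 786-O was 0.29 ± 0.0631 (SE; 1.23-fold; edgeR adjusted p = 0.00077). Without resistant 786-O replicate 2 it was 0.195 (edgeR adjusted p = 2.7e-05), and with each library's trend with GC content and length removed 0.148 (edgeR adjusted p = 0.031), while in the separate test of each gene on CPM, one of the alternatives, the call was lost. Resistant A498 had 2.22 times the level of A498 (log2 fold change 1.15 ± 0.0644, edgeR adjusted p = 3.7e-10), and 786-O had 2.01 times that of A498 (edgeR adjusted p = 1.4e-09). Against 786-O, resistant A498 did not pass (log2 fold change 0.15 ± 0.0632, edgeR adjusted p = 0.052), although the groups did not overlap. The call was gained in 10 of 22 alternative settings, among them those without resistant A498 replicate 1 or without any one of the resistant 786-O libraries. It was also gained with only the groups compared in the fit (0.186, edgeR adjusted p = 3e-06) and with DESeq2 (0.18, DESeq2 adjusted p = 0.03). With the GC and length trend removed the value was 0.0814 (edgeR adjusted p = 0.22).

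The neighbours of CCND1 on the long arm of chromosome 11 were set beside it because the region is often amplified as a whole in other cancers. Of 10 listed, 8 were in the table and 6 were tested. FGF3, an embryonic growth factor, had 0 counts in every library and ANO1, a chloride channel, 0 to 3, while FGF4 and FGF19 were not analysed here. In resistant 786-O, TPCN2, a lysosomal cation channel, CTTN, the actin-binding cortactin, and PPFIA1, a liprin, were higher than in 786-O (log2 fold changes 0.73, 0.56 and 0.27), and in resistant A498 against 786-O they were higher by 0.74, 0.48 and 0.50. FADD, a death receptor adaptor, did not pass in either comparison (log2 fold changes -0.03 and -0.09), nor did MYEOV (0.20 and -0.31). MYEOV had 111, 197.7 and 112 CPM in resistant 786-O replicates 1, 2 and 3, and 119 to 125.9 CPM in 786-O. LTO1 overlaps the 3′ end of CCND1 on the opposite strand, and its own level was 108 ± 3.16 CPM in 786-O, 114 ± 14.4 in resistant 786-O, 57.8 ± 0.664 in A498 and 95.5 ± 4.81 in resistant A498, with a log2 fold change of 0.08 in resistant 786-O (edgeR adjusted p = 0.31). It fell by 0.18 in resistant A498 against 786-O (edgeR adjusted p = 0.043). Whether the strand setting of the counting matched the kit was not tested, so counts of overlapping antisense pairs (LTO1 with CCND1, KCNQ1OT1 with KCNQ1, CDKN2B-AS1 with CDKN2A) are uncertain. With all libraries, 3 of the 6 neighbours were higher and 0 lower in resistant 786-O, where 35% and 33.5% of all genes were. In resistant A498 against 786-O 3 were higher and 1 lower, beside 31.6% and 32.1% of all genes. Without resistant 786-O replicate 2, 2 of the 6 were lower in each of the comparisons, and the share of all genes in that fit is not given here.

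CCND2 (chr12:4269771-4305353, plus strand), the cyclin D of B cells, gonads and many neurons, had 1 count in each of 2 libraries of resistant 786-O, 2 counts in resistant A498 replicate 1 and 0 in the other 9 libraries. All of these are at or under the floor of 3 counts in a library, which stands for 0.0613 CPM in the largest library and 0.144 CPM in the smallest, so no fold is given.

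CCND3 (chr6:41934934-42050357, minus strand), the cyclin D of lymphoid cells and of many other tissues, had 109, 107 and 102.5 CPM in 786-O, and 104, 138 and 109 in resistant 786-O, so that these groups overlapped. In A498 it had 195, 205 and 206 CPM, and in resistant A498 93.7, 90.2 and 91.3, below every other library. It did not pass in resistant 786-O (log2 fold change 0.14 ± 0.0796, edgeR adjusted p = 0.12): without replicate 2 the value was 0.00597, without replicate 1 or replicate 3 it passed, at 0.248 and 0.214, with the GC and length trend removed it was -0.172, and with library size alone it passed at 0.286. Resistant A498 had 0.454 times the level of A498 (log2 fold change -1.14 ± 0.0815, edgeR adjusted p = 6.3e-09) and 786-O 0.526 times that of A498 (edgeR adjusted p = 4.8e-08). Against 786-O, resistant A498 was lower by -0.21 ± 0.0809 on the log2 scale (edgeR adjusted p = 0.034), a call lost in 8 of 22 alternative settings, among them library size alone (-0.0584) and the settings without any one of the resistant A498 libraries, 786-O replicate 1 or 2, or resistant 786-O replicate 3. With the GC and length trend removed it was -0.321, and the difference between the parental lines -0.603. Against resistant 786-O it was lower by -0.35 (edgeR adjusted p = 0.0024), and -0.217 without resistant 786-O replicate 2, while it did not pass with the trend removed (-0.149) or in the separate test on CPM.

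The balance of both cyclins differed between A498 and the rest. Within a library, raw counts of CCND1 were 4.40 to 4.59 times those of CCND3 in 786-O, 4.74 to 5.11 times in resistant 786-O, 1.14 to 1.20 times in A498 and 5.44 to 5.97 times in resistant A498. None of the 4 groups overlapped, and A498 stood farthest from the others. A ratio within a library does not depend on how libraries were scaled to each other, but it does not take the length of the transcripts into account.

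**Figure D3:**
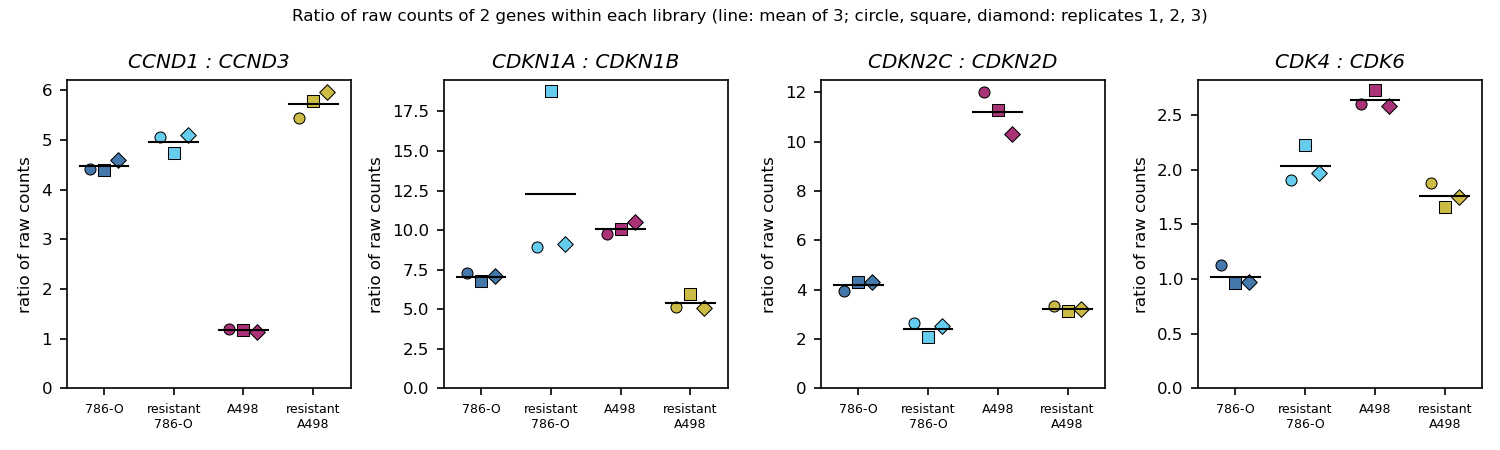
Ratio of the raw counts of 2 genes within each library, on linear axes from 0, for CCND1 to CCND3, CDKN1A to CDKN1B, CDKN2C to CDKN2D and CDK4 to CDK6; symbols mark replicates 1 (circle), 2 (square) and 3 (diamond), and lines the mean of 3 libraries. CCND1 to CCND3 is near 1 in A498 and above 4 in every other group, and CDKN1A to CDKN1B is 18.8 in resistant 786-O replicate 2 against 8.90 and 9.13 in the other 2 libraries of that group.

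CDKN1A (chr6:36676460-36687337, plus strand), which encodes p21, a CIP/KIP inhibitor of CDK2 that arrests cells in G1, had 258, 248 and 256 CPM in 786-O and 231, 366 and 247 CPM in resistant 786-O. In A498 the values were 355, 335 and 329 CPM, and in resistant A498 239, 253 and 241 CPM. Replicate 2 of resistant 786-O lay above all other libraries, and the other 2 libraries of that group lay below all 3 of 786-O. With all libraries the gene did not pass in resistant 786-O (log2 fold change 0.15 ± 0.119, edgeR adjusted p = 0.29). Without replicate 2 the sign turned, to -0.0922 (edgeR adjusted p = 0.042), and it passed at 0.293 without replicate 1 and at 0.286 with library size alone. Resistant A498 had 0.72 times the level of A498 (log2 fold change -0.47 ± 0.12, edgeR adjusted p = 0.0023), and 786-O 0.749 times (edgeR adjusted p = 0.0052). Neither passed with the GC and length trend removed (-0.156 and -0.126, edgeR adjusted p = 0.2 and 0.29). Resistant A498 against 786-O stood at -0.06 ± 0.119 (edgeR adjusted p = 0.7).

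MDM2, the ubiquitin ligase that ARF inhibits, fell from 72.4 ± 2.55 CPM in 786-O to 28.1 ± 2.85 in resistant 786-O and 40.6 ± 1.71 in resistant A498 (edgeR adjusted p = 1.7e-10 and 4e-08), with 121 ± 4.04 in A498.

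CDKN1B (chr12:12685498-12722369, plus strand), which encodes p27, the inhibitor that holds CDK2 in check in resting cells, had 35.5, 36.8 and 35.96 CPM in 786-O, and 25.96, 19.5 and 27.0 in resistant 786-O. It had 36.3, 33.3 and 31.2 CPM in A498, and 46.6, 42.7 and 47.3 CPM in resistant A498. All 3 libraries of resistant 786-O lay below, and all 3 of resistant A498 above, every library of the parental lines. The log2 fold change in resistant 786-O was -0.58 ± 0.0964 (0.67-fold, edgeR adjusted p = 8.4e-05). In resistant A498 it was 0.34 ± 0.0963 against 786-O (edgeR adjusted p = 0.0066) and 0.44 ± 0.0983 against A498 (edgeR adjusted p = 0.00094, and 0.148 with edgeR adjusted p = 0.14 once the GC and length trend was removed). The resistant groups differed from each other by 0.91 ± 0.0977 on the log2 scale (edgeR adjusted p = 3.9e-06). Raw counts of CDKN1A were 6.76 to 7.28 times those of CDKN1B in 786-O, 8.90 to 18.8 times in resistant 786-O, 9.78 to 10.5 times in A498 and 5.10 to 5.93 times in resistant A498.

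CDKN1C (chr11:2883213-2885775, minus strand), which encodes p57, an imprinted CIP/KIP inhibitor of growth in the embryo, had 16, 12 and 6 counts in the 786-O libraries (0.421, 0.310 and 0.133 CPM). In resistant 786-O it had 244, 111 and 249 counts (4.98, 2.54 and 5.45 CPM), in A498 130, 71 and 102 counts (3.76, 3.30 and 3.75 CPM) and in resistant A498 109, 118 and 133 counts (4.06, 5.65 and 5.204 CPM). The 786-O libraries lay far below the other 9, and resistant 786-O overlapped with both A498 groups. The gene passed the filter on low counts through the 3 groups in which it is read at a higher level. Its level in resistant 786-O was 15.3 times that in 786-O (log2 fold change 3.93 ± 0.346, edgeR adjusted p = 1e-07), and in resistant A498 17.4 times (4.12 ± 0.355, edgeR adjusted p = 9.4e-08). Against A498 it did not pass in resistant A498 (log2 fold change 0.45 ± 0.254, edgeR adjusted p = 0.12), although the groups did not overlap, and it passed in 4 settings, at 0.433 to 0.79, one of them that without resistant 786-O replicate 2. 786-O had 0.0783 times the level of A498 (edgeR adjusted p = 2.3e-07).

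Among the neighbours of CDKN1C on the short arm of chromosome 11, a cluster of imprinted genes, SLC22A18 and KCNQ1OT1 were also higher in the resistant groups than in 786-O. SLC22A18, a membrane transporter whose start lies 13.9 kb from CDKN1C, had 7.51 ± 0.679 CPM in 786-O and 40.3 ± 4.62 in resistant 786-O, and 35.4 ± 1.38 in A498 and 32.1 ± 1.40 in resistant A498. The log2 fold changes against 786-O were 2.42 ± 0.0874 in resistant 786-O (edgeR adjusted p = 6.8e-12) and 2.097 ± 0.0896 in resistant A498 (edgeR adjusted p = 4.8e-11). KCNQ1OT1, the long antisense RNA that silences the cluster on the paternal copy, had 2.11 ± 0.581 CPM in 786-O, 10.9 ± 5.35 in resistant 786-O, 2.84 ± 0.472 in A498 and 6.004 ± 1.48 in resistant A498 (log2 fold changes 2.36 and 1.49 against 786-O). It lies antisense within KCNQ1, a potassium channel gene with 0 to 2 counts in 786-O, 8 or 9 in resistant 786-O, 37 to 52 in A498 and 1 to 3 in resistant A498. H19, a maternally expressed RNA, had 0 counts in 786-O, 3 or 4 in resistant 786-O, 17 to 26 in A498 and 0 to 6 in resistant A498, IGF2 had 0 to 2 counts per library and ASCL2 0 to 5.

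Not all of the cluster moved the same way. PHLDA2, a placental growth regulator 42.5 kb from CDKN1C, did not pass in resistant 786-O (log2 fold change 0.21) and fell by 0.51 in resistant A498 against 786-O. Its level was 56.37, 85.12 and 57.84 CPM in resistant 786-O replicates 1, 2 and 3, and 53.49 to 63.52 CPM in 786-O. NAP1L4, a histone chaperone, fell in both (-0.33 and -0.31), CARS1, a cysteinyl-tRNA synthetase, rose in both (0.36 and 0.72), and OSBPL5, a sterol-binding protein, stood at -0.01, which did not pass, and -0.33. In all, 8 of the 10 neighbours were tested, H19 and KCNQ1 through their counts in A498, so no count or median over the neighbours is given.

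**Figure D4:**
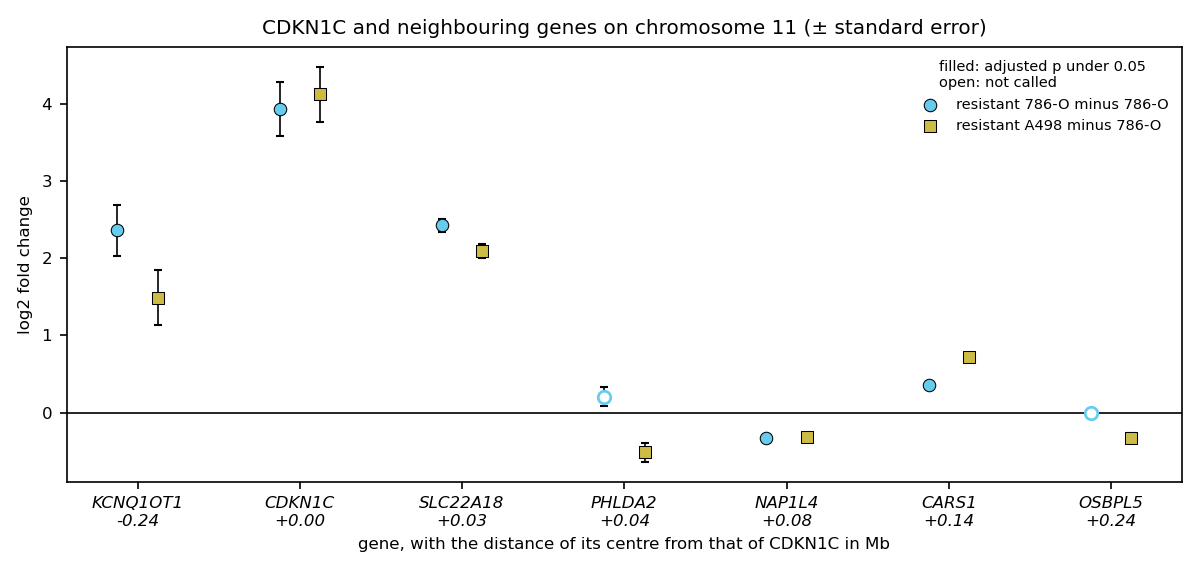
Log2 fold change ± SE of CDKN1C and 6 neighbours on the short arm of chromosome 11, in order of the distance of each gene's centre from that of CDKN1C in Mb, for resistant 786-O minus 786-O (circles) and resistant A498 minus 786-O (squares); filled symbols passed at an adjusted p under 0.05. KCNQ1OT1, CDKN1C and SLC22A18 lie above 1 in both comparisons, and the other 4 lie between -1 and 1.

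CDKN2C (chr1:50960745-50974634, plus strand), which encodes p18, had 64.2, 61.7 and 64.1 CPM in 786-O, 53.9, 40.7 and 57.4 in resistant 786-O, 67.3, 62.5 and 63.8 in A498 and 78.5, 76.8 and 79.2 in resistant A498. The resistant 786-O libraries lay below and the resistant A498 libraries above both parental groups, which overlapped. In resistant 786-O the log2 fold change was -0.32 ± 0.09 (edgeR adjusted p = 0.0053), and it was -0.19 without replicate 2 (edgeR adjusted p = 0.00029). The call was lost with library size alone (-0.177, edgeR adjusted p = 0.1) and with only the 2 groups in the fit (-0.288, edgeR adjusted p = 0.054), as well as in the separate test on CPM, and with the GC and length trend removed the value was -0.523. Resistant A498 was higher by 0.30 ± 0.0905 against 786-O (edgeR adjusted p = 0.0085), by 0.28 ± 0.0914 against A498 (edgeR adjusted p = 0.014) and by 0.63 ± 0.0909 against resistant 786-O (edgeR adjusted p = 6.3e-05). The value against A498 was 0.596 with the GC and length trend removed.

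CDKN2D (chr19:10566460-10569059, minus strand), which encodes p19, had 16.3, 14.3 and 14.9 CPM in 786-O and 20.5, 19.8 and 22.7 in resistant 786-O. In A498 it had 5.59, 5.53 and 6.22 CPM, and in resistant A498 23.7, 24.5 and 24.6. None of the 4 groups overlapped. The log2 fold change in resistant 786-O was 0.47 ± 0.073 (1.38-fold, edgeR adjusted p = 4.4e-05), and with the GC and length trend removed it was 0.0602 (edgeR adjusted p = 0.41). Exons of CDKN2D are 62.1% G or C. Resistant A498 had 1.6 times the level of 786-O (0.68 ± 0.0748, edgeR adjusted p = 1.5e-06) and 4.19 times that of A498 (2.07 ± 0.0848, edgeR adjusted p = 1e-11), and 786-O had 2.63 times that of A498 (1.39 ± 0.0846, edgeR adjusted p = 7.8e-10). The difference between the resistant groups was 0.21 ± 0.0732 (edgeR adjusted p = 0.031), and this call was lost in 6 settings, among them those without resistant 786-O replicate 1, resistant A498 replicate 2 or resistant A498 replicate 3, while with the trend removed the value was 0.576. CDKN2C had 3.93 to 4.31 times the raw counts of CDKN2D in 786-O, 2.06 to 2.63 times in resistant 786-O, 10.3 to 12 times in A498 and 3.13 to 3.32 times in resistant A498.

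**Figure D5:**
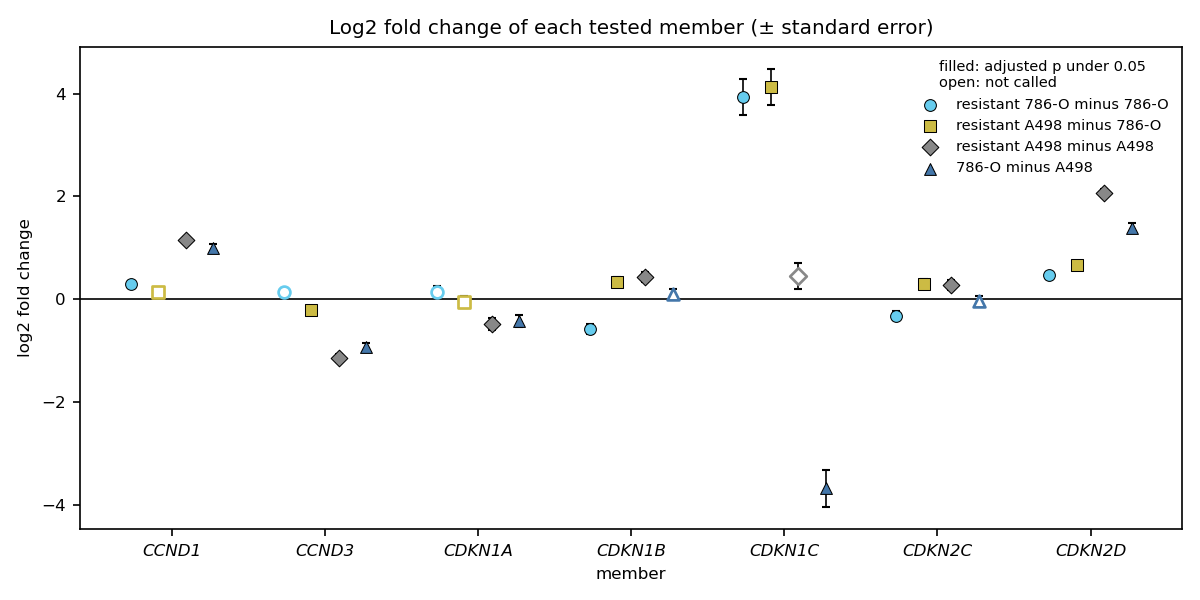
Log2 fold change ± SE of the 7 tested members in resistant 786-O minus 786-O (circles), resistant A498 minus 786-O (squares), resistant A498 minus A498 (diamonds) and 786-O minus A498 (triangles); filled symbols passed at an adjusted p under 0.05. CDKN1C lies near 4 in both comparisons of a resistant group with 786-O and at -3.68 between the parental lines, and CDKN1B and CDKN2C lie below 0 in resistant 786-O and above 0 in resistant A498.

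Per kilobase of the canonical transcript, the order of the levels was led by CDKN1A and CCND1 in 3 of the 4 groups. In 786-O, CDKN1A stood at 120 ± 2.45 CPM per kb, CCND1 at 112 ± 1.24, CDKN2C at 63.6 ± 1.42, CCND3 at 52.4 ± 1.601, CDKN1B at 14.96 ± 0.267, CDKN2D at 10.7 ± 0.726 and CDKN1C at 0.163 ± 0.0819. In resistant 786-O, CCND1 (137 ± 15.8) and CDKN1A (133 ± 34.8) were within their spread of each other, as were CCND3 (57.9 ± 9.12) and CDKN2C (50.9 ± 8.87), and CDKN2D (14.7 ± 1.09) stood above CDKN1B (10.0 ± 1.70) and CDKN1C (2.44 ± 0.88). In A498, CDKN1A (160 ± 6.44) was followed by CCND3 (99.7 ± 3.17), CDKN2C (64.9 ± 2.49), CCND1 (55.8 ± 0.984), CDKN1B (13.9 ± 1.06), CDKN2D (4.06 ± 0.267) and CDKN1C (2.03 ± 0.149). In resistant A498, CCND1 (124 ± 4.15) and CDKN1A (115 ± 3.57) led, followed by CDKN2C (78.6 ± 1.22), CCND3 (45.3 ± 0.888), CDKN1B (18.9 ± 1.03), CDKN2D (17.0 ± 0.351) and CDKN1C (2.80 ± 0.461), with CDKN1B and CDKN2D near the edge of their spread. CCND2, CDKN2A and CDKN2B came last in all groups. The order depends on the length used: per kilobase of all merged exons, CCND1 led CDKN1A in 786-O (99.5 against 84.9 CPM per kb), came second in A498 (49.6, above CCND3 at 35.1 and CDKN2C at 21.4), and CDKN1B lay below CDKN2D in all 4 groups (3.897 against 10.1 in 786-O).

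The kinases that cyclin D binds were lower in resistant 786-O. CDK6 fell from 362 ± 23.0 CPM in 786-O to 119 ± 1.85 in resistant 786-O (log2 fold change -1.61, edgeR adjusted p = 1.8e-12), with 95.1 ± 3.79 in A498 and 150 ± 3.52 in resistant A498 (-1.27 against 786-O, edgeR adjusted p = 2.3e-11). CDK4 fell from 369 ± 11.7 CPM in 786-O to 241 ± 16.8 in resistant 786-O (-0.61, edgeR adjusted p = 6.6e-08), with 251 ± 2.63 in A498 and 264 ± 10.3 in resistant A498 (-0.48 against 786-O). The raw counts of CDK4 were 0.964 to 1.13 times those of CDK6 in 786-O, 1.90 to 2.22 times in resistant 786-O, 2.58 to 2.73 times in A498 and 1.66 to 1.88 times in resistant A498. RB1, their substrate, fell from 109 ± 2.01 CPM in 786-O to 79.0 ± 4.28 in resistant 786-O (-0.47, edgeR adjusted p = 1.1e-06) and stood at 60.2 ± 3.17 in A498 and 101 ± 2.14 in resistant A498, where the difference from 786-O (-0.12) did not pass.

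Of the 22 genes of the G1 engine (CDK4, CDK6, CDK2, cyclin E, CDC25A, the CDK-activating kinase, the RB1 family, E2F1 to E2F8 and their partners), all tested, 0 rose and 17 fell in resistant 786-O against 786-O, where 35% of all genes were higher and 33.5% lower. In resistant A498 2 rose and 14 fell against 786-O (31.6% and 32.1% of all genes), and the medians of the log2 fold changes were -0.37 and -0.28 against 0.03 and 0.00 over all genes. Scaled by library size alone, 3 rose and 11 fell in resistant 786-O, and 5 were higher and 9 lower in resistant A498 against 786-O. That scaling moved the median log2 fold change of all genes to 0.176 and 0.154. Without resistant 786-O replicate 2, 2 rose and 18 fell in resistant 786-O. The shares of all genes under these alternatives are not given here. Among 22 E2F targets and other proliferation genes, all tested, 0 rose and 20 fell in resistant 786-O beside the same shares of all genes, with a median of -0.62, and 1 rose and 18 fell in resistant A498 against 786-O, with a median of -0.46. RRM2, a subunit of ribonucleotide reductase, fell from 501 ± 4.38 CPM in 786-O to 215 ± 40.6 in resistant 786-O (log2 fold change -1.22) and stood at 303 ± 10.9 in resistant A498 (-0.73 against 786-O). Against A498, the libraries labelled resistant A498 had 11 G1 genes higher and 6 lower, and 7 proliferation genes higher and 11 lower, where 36.3% of all genes were higher and 36.4% lower. TOP2A, one of the proliferation genes, had 459.6, 281.1 and 441.2 CPM in resistant 786-O replicates 1, 2 and 3. Its level was 381.1 to 388.6 CPM in 786-O and 541.1 to 563 CPM in resistant A498. The counts of the proliferation list without resistant 786-O replicate 2 are not given here. Fewer cells in cycle and less RNA of the G1 and proliferation genes per cell cannot be told apart in bulk RNA.

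The change in the resistant group was also compared between the lines, as resistant A498 minus A498 against resistant 786-O minus 786-O. All 7 members tested passed this test, where 68.3% of all genes tested did. CCND1, CDKN1B, CDKN2C and CDKN2D were higher (33.9% of all genes) and CCND3, CDKN1A and CDKN1C lower (34.4%) in the former, 4 of them by over 2-fold (35.1%). Since the resistant A498 libraries stood nearer to the 786-O groups than to A498, this difference includes that between the parental lines.

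The genes whose log2 CPM was most like that of a member over the 12 libraries were sought among 11863 tested genes with at least 5 CPM on average. The libraries fall into 4 groups, so a high Pearson r says mainly that the order of the groups was alike. For CCND1 these were DPP3 (0.997), MME (0.995) and ACAA2 (0.995), and for CCND3 they were TSPAN4 (0.996), LINC01504 (0.994) and GSTK1 (0.993). CDKN1A was most like BRF2 (0.967), FAM227B (0.957) and VAMP8 (0.957), and CDKN1B most like HOXA9 (0.982) and FAM199X (0.977). CDKN1C stood with OSBPL1A (0.982), SCN8A (0.982) and NDRG1 (0.98), CDKN2C with CRYBG1 (0.981), the fellow member CDKN1B (0.971) and IPO9 (0.964), and CDKN2D with GUCY1A2, SGPP2 and OTUD1 (0.995 each). Between 4 genes for CDKN1A and 500 genes for CDKN2D had an r above 0.95.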

How the data were processed

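RNA-seq of 12 libraries (4 groups of 3) was measured. The authors prepared TruSeq Stranded mRNA libraries, sequenced both ends on NovaSeq and HiSeq instruments, trimmed reads with Trimmomatic 0.36.6, aligned them to the human genome with HISAT2 2.1.0 and deposited raw counts per gene made with featureCounts 1.6.3 and GENCODE release 33, as the study's methods and the submitters' processing notes give. Protein-coding genes held 94.9% to 95.5% of the counts. Gene positions are those of GENCODE release 44 on GRCh38.

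Groups came from the sample labels. From the counts, all 12 libraries were fitted with edgeR 4.0.16 (filterByExpr, TMM, glmQLFit and glmQLFTest, prior count 0.125, Benjamini-Hochberg over all genes tested). The SE of a log2 fold change comes from the fold change without prior and its F statistic. The model was tested on simulated data in which few genes were changed, in resistant 786-O alone, and the outcome is not reported here. Far more genes passed in the real comparisons, so that test does not give their error rate. Alternatives were DESeq2 1.42.0, library size alone, no filter, only the groups compared, the replicate number as a block, a GC content and length trend removed by offsets, thinning to the depth of the smallest library, a required absolute log2 fold change above 1, a prior count of 2, each library left out, and the study's own per-gene test on raw counts and on CPM. The members and gene lists were chosen with earlier results of these data known. Named genes are all members, CDK4, CDK6, RB1, MDM2, all genes of the 3 neighbour lists, the up to 4 genes per list with the largest absolute log2 fold change above 1 against 786-O, and the 3 genes most like each member; some items the rule names are not reported here. Marker genes were named after their values were seen. Counting error only is covered by the floor of 3 counts.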

Additional observations from a re-analysis of the deposited data

Results flagged for a closer look

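For each of the 7 members tested, the change from the parental to the resistant group differed between the lines in a test of the difference itself (resistant A498 minus A498, against resistant 786-O minus 786-O, edgeR quasi-likelihood test, Benjamini-Hochberg adjusted). On the log2 scale the differences were 0.859 for CCND1 (edgeR adjusted p = 6.2e-07), -1.28 for CCND3 (edgeR adjusted p = 1e-07), -0.62 for CDKN1A (edgeR adjusted p = 0.0043), 1.02 for CDKN1B (edgeR adjusted p = 1e-05), -3.49 for CDKN1C (edgeR adjusted p = 5.7e-06), 0.597 for CDKN2C (edgeR adjusted p = 0.00075) and 1.6 for CDKN2D (edgeR adjusted p = 7.2e-09). For CDKN1A the difference was -0.377 without resistant 786-O replicate 2, and with the GC content and length trend removed it was -0.0937 (edgeR adjusted p = 0.6). With that trend removed the differences were -0.752 for CCND3, 0.634 for CDKN1B and 1.12 for CDKN2C, which passed. Of all genes tested, 68.3% passed. The difference between the parental lines, 786-O minus A498, is a part of each of these values. It was 1.00 for CCND1, -0.93 for CCND3, -0.42 for CDKN1A, -3.675 for CDKN1C and 1.39 for CDKN2D on the log2 scale. For CDKN1B (0.10) and CDKN2C (-0.03) it did not pass.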

How the results depend on the processing

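The numbers of members passing, in the order resistant 786-O minus 786-O, resistant A498 minus A498, 786-O minus A498, resistant A498 minus 786-O, resistant A498 minus resistant 786-O and the difference of changes, were 5, 6, 5, 5, 4 and 7. With one library left out they ranged over 5 to 7, 6 to 7, 5 to 5, 4 to 6, 3 to 5 and 7 to 7. A minimum log2 fold change of 1 left 1, 3, 3, 1, 0 and 4. The study's own per-gene test was run on the members alone, so no share of all genes stands beside it. It gave 2, 3 and 3 for the first 3 comparisons on raw counts. On CPM it gave 3 in resistant 786-O minus 786-O and 2 in resistant A498 minus resistant 786-O. In resistant A498 minus A498 and in 786-O minus A498, its calls on CPM were those of the main fit. In resistant A498 minus 786-O, CCND1 also passed on CPM. With the replicate block the numbers passing were 5, 6, 5, 6, 4 and 7. The shares of all genes under these alternatives are not given here. The same replicate number did not pair libraries (correlations of deviations -0.184 to 0.0982), and the block changed the call only of CCND1 in resistant A498 minus 786-O (edgeR adjusted p = 0.048). With a prior count of 0.5 the correlation of resistant A498 was 0.977 with resistant 786-O, 0.939 with 786-O and 0.839 with A498.

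Signs turned as follows, in log2 fold changes. On raw counts, which are not scaled for depth, CCND1 was at -0.583, CDKN1B at -0.39, CDKN2C at -0.427 and CDKN2D at -0.0566 in resistant A498 minus 786-O, CDKN1B was at -0.00258, CDKN1C at -0.747, CDKN2C at -0.295 and CDKN2D at -0.711 in resistant A498 minus resistant 786-O, and CDKN1A was at 0.12495 and CDKN2C at 0.514 in 786-O minus A498. With the GC content and length trend removed, CCND3 was at -0.172 and CDKN1A at -0.0625 in resistant 786-O minus 786-O, CDKN1A was at 0.0323 in resistant A498 minus resistant 786-O, and CDKN1B was at -0.0788 and CDKN2C at 0.267 in 786-O minus A498. With one library left out, CDKN1A ranged from -0.0922 to 0.293 in resistant 786-O minus 786-O and from -0.321 to 0.0329 in resistant A498 minus resistant 786-O, CDKN1C from -0.0796 to 0.393 in the latter, and CDKN2C from -0.0434 to 0.0102 in 786-O minus A498, the signs turning without resistant 786-O replicate 2 and, for CDKN2C, without A498 replicate 1. CDKN1A in resistant A498 minus 786-O was at 0.0943 with library size alone, and CDKN2C in 786-O minus A498 at 0.0261 with no filter. Apart from the raw counts, the cause was not tested. Of the other fold changes of members, 481 with a library left out and 341 under other settings kept direction and call. A call was lost by 9 and 23 and gained by 10 and 18. The prior count of 2 is among the 341. It leaves the p-value as it is, so it could not have changed a call. For CCND2, CDKN2A and CDKN2B, at or under 3 counts, the level that could have been missed is set by depth.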

Other observations

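The ubiquitin ligases and other proteins that set the turnover of cyclin D and of p27 were read too, and all 16 genes listed were tested. In resistant 786-O 2 rose and 10 fell against 786-O (median log2 fold change -0.27), where 35% of all genes were higher and 33.5% lower. Resistant A498 had 6 higher and 7 lower than 786-O (median -0.09), beside 31.6% and 32.1% of all genes. In either direction, 12 of 16 and 13 of 16 passed, where 68.5% and 63.6% of all genes did. Scaled by library size alone, 3 rose and 7 fell in resistant 786-O, and 7 were higher and 3 lower in resistant A498 against 786-O. That scaling moved the median log2 fold change of all genes to 0.176 and 0.154, and the shares of all genes under it are not given here. CUL4B, a cullin scaffold, had 72.5 ± 0.505 CPM in 786-O, 70.2 ± 6.85 in resistant 786-O, 97.3 ± 5.44 in A498 and 149 ± 4.67 in resistant A498, where the change against 786-O was 1.03 on the log2 scale. USP2, which removes ubiquitin from cyclin D1, had 0.641 ± 0.165, 0.586 ± 0.156, 1.79 ± 0.172 and 1.65 ± 0.352 CPM in that order, and its change in resistant A498 against 786-O was 1.36.

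Replicate 2 of resistant 786-O differed from the mean of the other 2 libraries of its group by 0.615 (log2) for CDKN1A, 0.375 for CCND3, 0.272 for CCND1, -0.126 for CDKN2D, -0.443 for CDKN1B, -0.452 for CDKN2C and -1.02 for CDKN1C.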
